A study of Mus musculus with 14 samples.

Results

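The data described here are the 8 LPS-treated libraries, of 14 RNA-seq libraries in the series, that show how the effect of a first Poly I:C stimulus on the LPS response changed between 2 h and 6 h. They were chosen by their labels alone. Bone marrow of male mice of strain C57Bl6/J, aged 6 to 12 weeks, was grown into macrophages in medium with conditioned supernatant as the source of CSF-1. Cells labelled IC:LPS6 received 100 ng/mL of Poly I:C for 24 h, were washed and then received LPS for 6 h, and cells labelled PBS:LPS6 received PBS in place of Poly I:C. The groups IC:LPS2 and PBS:LPS2 had the same treatments with 2 h of LPS. Each group held 2 libraries, all groups were wild type, and no dose is given for LPS as the second stimulus. Cells given Poly I:C first are called primed and cells given PBS first unprimed. The other 6 libraries received PBS as the second stimulus, with 2 libraries per time after Poly I:C and 1 library per time after PBS. The labels do not say whether replicates are separate animals or cultures, so p-values measure the spread between these samples alone, and that spread may be technical.

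Poly I:C mimics viral double-stranded RNA, is sensed by TLR3 and by cytosolic RNA helicases, and makes macrophages secrete type I interferon. LPS, a component of the bacterial outer membrane, is sensed by TLR4, which signals first through MyD88 to NF-kB and then through TRIF to IRF3 and the interferon genes. In macrophages that meet LPS alone, the interferon made in the first hours acts back on the cells through its receptor and drives a later wave of interferon-stimulated genes.

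For each gene the priming effect at a time was the mean log2(FPKM + 1) of the primed libraries minus that of the unprimed libraries, and the contrast was the priming effect at 6 h minus the priming effect at 2 h. FPKM is a fragment count divided by transcript length and library size. A negative contrast can arise because unprimed cells gained transcript between 2 h and 6 h or because primed cells lost it, so the change of each arm was tested as well. A difference was called where limma gave a p under 0.05 after Benjamini-Hochberg adjustment over 11977 named table entries, here called genes. On the log2(FPKM + 1) scale the change of weakly expressed genes is understated. Replicates correlated across genes, which are not independent replicates, at 0.988 in both 6 h groups, 0.985 in the primed group at 2 h and 0.974 in the unprimed group at 2 h, in which 306 genes lay over 2-fold apart. All 10 macrophage markers with an entry of their own were at 1 FPKM or more in every library. Their summed level was 5764 to 5854 FPKM in primed and 16070 to 17330 FPKM in unprimed libraries at 6 h, and 8704 to 9061 FPKM in primed and 16620 to 21330 FPKM in unprimed libraries at 2 h. Of these markers 7 were lower and 1 higher in the contrast defined above, beside 25.3% and 19.1% of all genes. T cell, B cell and stromal markers summed to 1.95 to 7.31, 88.8 to 120.3 and 22.7 to 158.7 FPKM over the LPS libraries, and none of the 1, 1 and 7 tested was higher in the contrast while 2 of the stromal ones were lower. Among 4 tested dendritic cell markers 2 were lower, 1 of them Bst2, which is itself interferon-stimulated. The part of these markers in the results was not tested. Natural killer cell markers and erythroid and mast cell markers summed to less than 1 FPKM in every LPS library. In bulk RNA, fewer cells of a type and less RNA per cell cannot be told apart.

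The priming effect differed between the times in 5312 genes, or 44.4% of those tested. It was lower at 6 h in 3030 genes (25.3%) and higher at 6 h in 2282 genes (19.1%). The contrast was at least 2-fold in 2029 of the 3030 genes and in 1369 of the 2282 genes. The median contrast over all tested genes was -0.055. Of the genes with a lower effect at 6 h, 1123 were not called at 6 h and higher in primed cells at 2 h, 665 were lower at 6 h and higher at 2 h, and 482 were higher at both times. A further 549 were lower in primed cells at 6 h and not called at 2 h, and 164 were lower at both times. Of the genes with a higher effect at 6 h, 789 were not called at 6 h and lower in primed cells at 2 h, 497 were higher at 6 h and not called at 2 h, and 469 were higher in primed cells at 6 h and lower there at 2 h. Another 351 were lower and 129 higher at both times. With the same contrast in cells without LPS subtracted, 1199 of all genes were called lower (10%) and 758 higher (6.33%). They included 1119 of the 3030 genes and 683 of the 2282 genes in the same direction. That subtraction rests on 1 PBS-then-PBS library per time. Its median standard error was 0.397 against 0.251, so a call can end without a smaller difference.

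**Figure D1:**
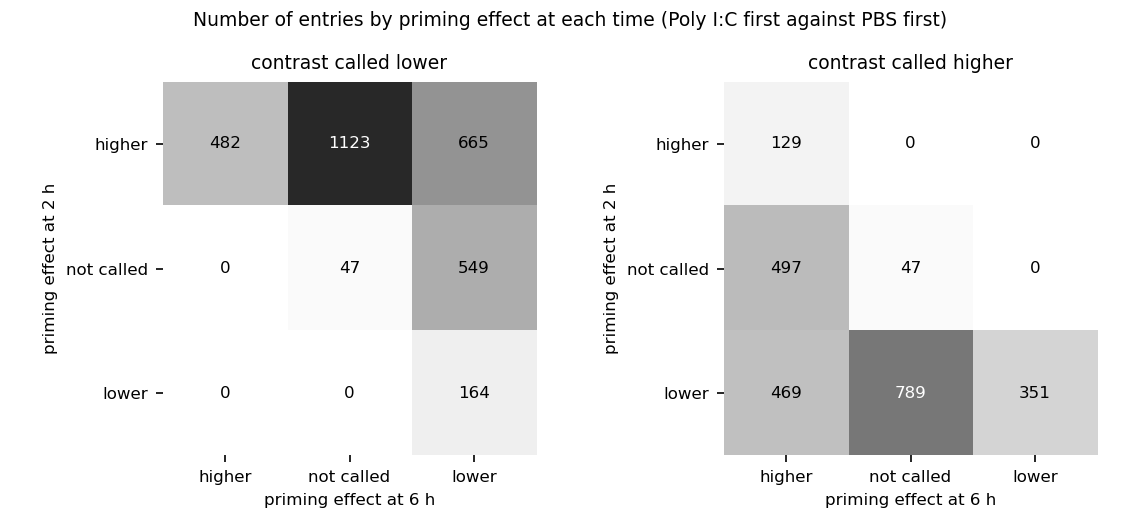
Number of genes by the call of the priming effect at 6 h (columns) and at 2 h (rows), for genes with a contrast called lower (left) and called higher (right), with darker cells holding more genes. The most filled cell on the left holds the 1123 genes that were higher in primed cells at 2 h and not called at 6 h.

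The arms separated late arrival from loss. In 1209 of the 3030 genes with a lower effect at 6 h (39.9%), unprimed cells rose between 2 h and 6 h while primed cells did not fall by the test, and these are called late in unprimed cells. In 904 (29.8%) primed cells fell while unprimed cells did not rise by the test, and these are called lost in primed cells. In 808 (26.7%) both happened, and in 109 neither arm passed the test alone. Across all genes 14.7% rose and 25.3% fell in primed cells, against 23.4% that rose and 26% that fell in unprimed cells. The median change of the late group was -0.10 in primed and 1.16 in unprimed cells, and that of the lost group was -1.05 in primed and 0.039 in unprimed cells. When the arms were assigned by their share of the contrast, with 75% or more for a single arm, 1111 genes were late in unprimed cells, 745 were lost in primed cells and 1174 were shared. Of the genes late in unprimed cells, 158 were higher, 561 lower and 490 not called in primed cells at 6 h, against 873 higher at 2 h. Across all genes 23.7% were higher and 25.9% lower in primed cells at 6 h, and 32.6% were higher and 28.5% lower at 2 h. The late group was defined from the same libraries, so its excess of genes higher at 2 h follows in part from that rule.

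The genes with a higher effect at 6 h were split less evenly. Unprimed cells fell while primed cells did not rise by the test in 1194 of 2282 genes (52.3%), primed cells rose alone in 497 (21.8%), both arms moved in 478 (20.9%), and neither passed in 113. The number with both arms called moved with single libraries, to 305 genes without the second primed 6 h library and 296 without the first primed 2 h library, and it was 1010 by share. Without the first primed 2 h library 313 genes were late in primed cells, and without the second primed 6 h library 483 genes with a lower effect had both arms called.

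**Figure D2:**
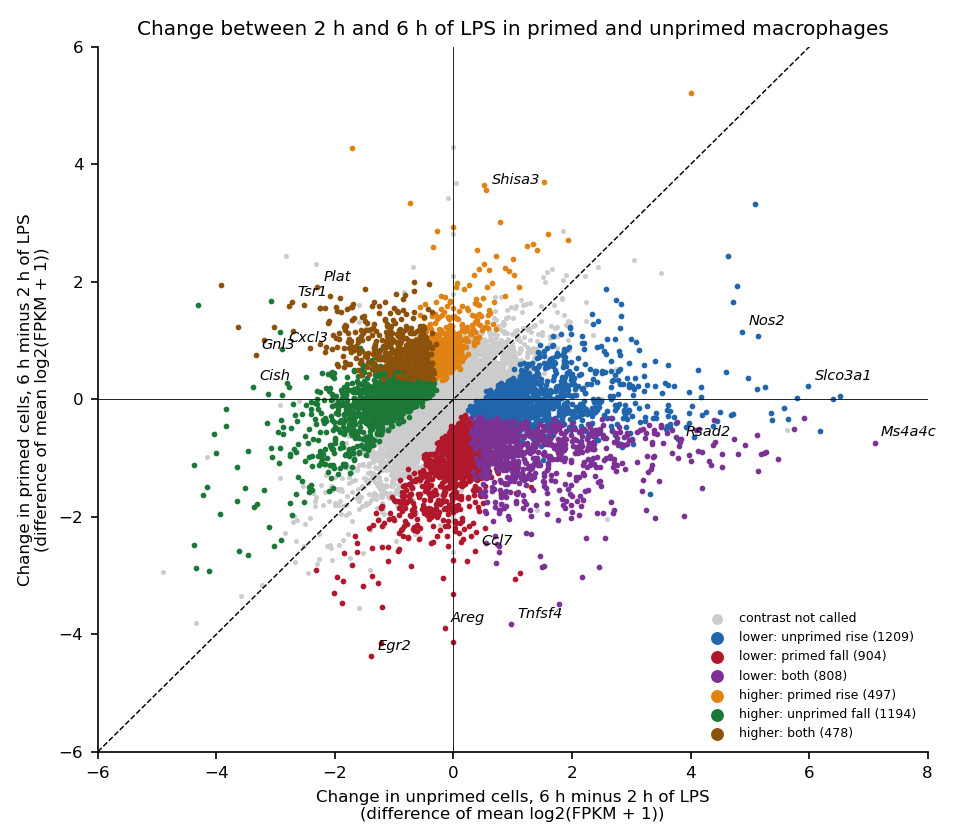
Each point is a tested gene, placed by its change from 2 h to 6 h of LPS in unprimed cells (horizontal) and in primed cells (vertical), both as differences of mean log2(FPKM + 1), with the dashed line marking equal change. Genes below the line have a lower priming effect at 6 h and are coloured by the arm that passed the test, with 1209 carried by a rise in unprimed cells, 904 by a fall in primed cells and 808 by both.

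Interferon-stimulated genes had a lower priming effect at 6 h in all tested members but 1. Of 47 listed names 36 had an entry of their own that passed the filter, and the priming effect was lower at 6 h in 35 of them and higher in none, against 25.3% and 19.1% of all genes. The median contrast of the list was -3.68. Its median change between 2 h and 6 h was -0.53 in primed and 3.23 in unprimed cells. All 36 rose in unprimed cells, 19 fell in primed cells, 16 were late in unprimed cells alone and none was lost in primed cells alone. At 6 h 5 were higher and 11 lower in primed cells, against 35 higher and none lower at 2 h. A median of 86.4% of the contrast of the called members came from the unprimed arm. Mx2, a dynamin-like antiviral GTPase, was the exception with a contrast of -0.83 ± 0.35 (limma, adjusted p = 0.0769).

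Rsad2, which encodes the antiviral enzyme viperin, had 1149 and 977 FPKM in primed and 3589 and 4116 FPKM in unprimed libraries at 6 h, and 1933 and 1609 FPKM in primed and 287 and 257 FPKM in unprimed libraries at 2 h. Unprimed libraries were the highest at 6 h and the lowest at 2 h, with no overlap between any groups, so the order of primed and unprimed cells differed between the times. The contrast was -4.55 ± 0.21 (limma, adjusted p = 3.18e-07). Ms4a4c, a gene of the MS4A family of membrane proteins at chr19:11404487-11427246 (GRCm38), had 1765 and 1712 FPKM in primed and 702 and 990.1 FPKM in unprimed libraries at 6 h, and 2859.8 and 2945 FPKM in primed and 6.38 and 3.98 FPKM in unprimed libraries at 2 h. Its 2 h unprimed libraries stood far below all others, and primed libraries remained above unprimed ones at 6 h. Its contrast of -7.84 ± 0.29 (limma, adjusted p = 1.25e-07) was the most negative on the list. Herc6, an interferon-induced ubiquitin ligase that attaches ISG15 in mice, had 139 and 125 FPKM in primed and 148 and 157 FPKM in unprimed libraries at 6 h, and 158 and 156 FPKM in primed and 4.95 and 4.69 FPKM in unprimed libraries at 2 h. The other groups lay close together while the 2 h unprimed libraries were low, and the contrast was -4.97 ± 0.15 (limma, adjusted p = 6.06e-08). Isg15, a ubiquitin-like modifier, had 3394 and 3442 FPKM in primed and 3075 and 3764 FPKM in unprimed libraries at 6 h, and 5871 and 5864 FPKM in primed and 629.9 and 364 FPKM in unprimed libraries at 2 h, with a contrast of -3.61 ± 0.33 (limma, adjusted p = 1.72e-05). At 6 h its primed values fell within the range of the unprimed ones.

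Promoters of 5 genes are shown as examples of 3 motifs whose shares in the gene groups are given after them, with no test of a difference between groups. They are RefSeq windows of GRCm38.p6 from 250 bases before to 50 bases after the start of the gene, on the strand of the gene, with motif matches in capitals. An interferon response element was searched as GAAA, any 2 bases and GAAA on both strands, a CRE as TGACGTCA and an E-box as CACGTG (both palindromes), and none of these motifs contains another. Rsad2 (chr12:26456403-26456702, minus strand) and Gbp2 (chr3:142620413-142620712, plus strand) hold an interferon response element match that begins 120 and 59 bases before the start. Areg (chr5:91139349-91139648, plus strand) holds a CRE 61 bases before the start. Nop2 (chr6:125131633-125131932, plus strand) holds an E-box 60 bases before the start and Tsr1 (chr11:74897830-74898129, plus strand) holds one 24 bases after it.
Rsad2: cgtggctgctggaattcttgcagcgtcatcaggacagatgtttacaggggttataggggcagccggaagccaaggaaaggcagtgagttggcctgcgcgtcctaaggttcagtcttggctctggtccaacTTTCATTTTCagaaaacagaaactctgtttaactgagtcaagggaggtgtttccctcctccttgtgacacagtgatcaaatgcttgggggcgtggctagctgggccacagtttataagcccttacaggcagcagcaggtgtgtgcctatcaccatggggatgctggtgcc
Gbp2: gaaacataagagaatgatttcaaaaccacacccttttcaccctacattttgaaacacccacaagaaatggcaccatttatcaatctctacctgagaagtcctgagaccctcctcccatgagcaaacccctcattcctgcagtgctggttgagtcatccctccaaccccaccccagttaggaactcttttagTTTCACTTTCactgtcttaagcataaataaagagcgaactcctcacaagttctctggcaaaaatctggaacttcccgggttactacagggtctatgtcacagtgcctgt
Areg: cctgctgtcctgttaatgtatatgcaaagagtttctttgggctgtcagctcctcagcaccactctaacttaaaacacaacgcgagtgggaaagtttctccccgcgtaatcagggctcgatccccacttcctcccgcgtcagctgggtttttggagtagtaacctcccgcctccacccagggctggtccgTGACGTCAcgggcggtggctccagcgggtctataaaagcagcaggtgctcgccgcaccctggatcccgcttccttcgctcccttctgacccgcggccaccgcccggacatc
Tsr1: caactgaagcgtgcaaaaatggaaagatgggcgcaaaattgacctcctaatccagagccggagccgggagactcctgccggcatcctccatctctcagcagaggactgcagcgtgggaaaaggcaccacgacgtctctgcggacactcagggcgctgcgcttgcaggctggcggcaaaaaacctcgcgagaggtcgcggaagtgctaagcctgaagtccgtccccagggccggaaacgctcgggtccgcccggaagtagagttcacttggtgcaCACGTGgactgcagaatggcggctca
Nop2: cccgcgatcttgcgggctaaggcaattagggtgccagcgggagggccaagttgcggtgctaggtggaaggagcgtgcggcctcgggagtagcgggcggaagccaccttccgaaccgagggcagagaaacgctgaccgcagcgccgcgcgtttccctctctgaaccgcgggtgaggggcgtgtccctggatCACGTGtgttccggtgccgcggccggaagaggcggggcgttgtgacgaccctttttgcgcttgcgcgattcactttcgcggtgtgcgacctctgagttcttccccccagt

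The interferon response element stood in 3.58% of the 22862 promoters of genes with a single window and in 3.26% of those of tested genes. Its share was 6.66% among genes late in unprimed cells, 8.40% where both arms were called and the effect was lower, 2.57% among genes lost in primed cells and 1.67% among genes lost in unprimed cells. Of the 22 interferon-stimulated genes with a single window 10 held it. All 6 of the guanylate-binding protein and immunity-related GTPase genes with a single window did. The E-box stood in 7.12% of all promoters and 10.5% of those of tested genes, and in 6 of 17 promoters of ribosome biogenesis genes. Among genes with a lower effect its share was 9.90% late in unprimed cells, 11.7% lost in primed cells and 7.65% with both arms called. Among genes with a higher effect its share was 7.67% late in primed cells, 14.5% lost in unprimed cells and 16.4% with both arms called. The CRE stood in 1.85% of all promoters, 3.51% of those of tested genes and 2 of 20 promoters of immediate-early genes. Its share was 4.44% among genes lost in primed cells and 4.22% among genes late in unprimed cells. It was 2.47% where both arms were called and the effect was lower, and 3.74% among genes not called in the contrast. These matches are letters in a window and were not tested as binding sites.

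Guanylate-binding proteins and immunity-related GTPases, which attack the membranes around intracellular microbes, were lower in the contrast as well. Of 18 names 9 had an entry of their own, because many paralogs share merged entries. The contrast was lower in all 9, beside 25.3% of all genes, with a median of -2.93. Reads of these near-identical copies may have been split, so single values are uncertain. Gbp2 had 968 and 864 FPKM in primed and 1593 and 2023 FPKM in unprimed libraries at 6 h, and 1765 and 1661 FPKM in primed and 54.3 and 38.3 FPKM in unprimed libraries at 2 h, with a contrast of -6.17 ± 0.24 (limma, adjusted p = 1.44e-07). Its 6 h unprimed libraries held about as much as the 2 h primed ones. Tgtp2, a GTPase of this list with a near-identical neighbour, had 429 and 349 FPKM in primed and 560.4 and 587 FPKM in unprimed libraries at 6 h, and 466 and 442 FPKM in primed and 14.2 and 11.8 FPKM in unprimed libraries at 2 h. Its 2 h unprimed libraries alone were low, and its contrast was -5.59 ± 0.18 (limma, adjusted p = 6.06e-08). The list had a median change of -0.34 in primed and 2.72 in unprimed cells.

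Among factors that relay interferon signals, STAT and IRF genes were mostly lower in the contrast. Of 11 tested 7 were lower (63.6%) and 2 higher (18.2%), beside 25.3% and 19.1% of all genes. Of the 7, 3 were late in unprimed cells, 2 were lost in primed cells and 2 had both arms called. Irf7, the factor that amplifies interferon gene transcription, had 2149.5 and 2007 FPKM in primed and 1187 and 1601 FPKM in unprimed libraries at 6 h, and 3953 and 4019.9 FPKM in primed and 120.5 and 62.6 FPKM in unprimed libraries at 2 h, with a contrast of -4.91 ± 0.36 (limma, adjusted p = 4.17e-06). Here primed libraries were above unprimed ones at both times, and the gap was wider at 2 h. Tyk2, a kinase bound to the interferon receptor, had 72.2 and 67.4 FPKM in primed and 62.6 and 75.7 FPKM in unprimed libraries at 6 h, and 71 and 68.4 FPKM in primed and 12.5 and 13 FPKM in unprimed libraries at 2 h, with a contrast of -2.35 ± 0.16 (limma, adjusted p = 2.82e-06). After the contrast without LPS was subtracted Tyk2 was no longer called, at -0.67. Ifnb1, the interferon beta gene, was not called, at -0.092 ± 0.51 (limma, adjusted p = 0.897). It had 32 and 29 FPKM in primed and 4.47 and 8.17 FPKM in unprimed libraries at 6 h, and 218 and 209.8 FPKM in primed and 50.8 and 38.6 FPKM in unprimed libraries at 2 h, so it was higher in primed cells at both times and fell in both arms. Its sign turned positive with a pseudocount of 0.1, without the second unprimed library of either time, and after subtraction of the contrast without LPS.

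MHC class I presentation genes, which load peptides for display to CD8 T cells, had a lower contrast in 12 of 14 tested members of 21 listed, with a median of -1.70. That share was 85.7%, beside 25.3% of all genes, and no member was higher. Of the 12, 9 were late in unprimed cells and none was lost in primed cells alone. Nlrc5, the transactivator of MHC class I genes, had 72.9 and 52.4 FPKM in primed and 81.7 and 119 FPKM in unprimed libraries at 6 h, and 72.1 and 71.7 FPKM in primed and 4.96 and 3.5 FPKM in unprimed libraries at 2 h, and its contrast was -4.48 ± 0.31 (limma, adjusted p = 3.24e-06). The 2 h unprimed libraries stood apart below all others. Psmb9, an immunoproteasome subunit, had 246 and 249 FPKM in primed and 205 and 262 FPKM in unprimed libraries at 6 h, and 347 and 372 FPKM in primed and 62.8 and 37.1 FPKM in unprimed libraries at 2 h, with a contrast of -2.78 ± 0.29 (limma, adjusted p = 4.48e-05). All 3 interferon-induced chemokines were lower as well. Cxcl10, which attracts activated T cells through CXCR3, had 1859 and 1850.1 FPKM in primed and 5144 and 6792 FPKM in unprimed libraries at 6 h, and 2306 and 2312 FPKM in primed and 2585 and 2005 FPKM in unprimed libraries at 2 h. Only the 6 h unprimed libraries stood apart, and the contrast was -1.69 ± 0.29 (limma, adjusted p = 0.00091). Subtracting the contrast without LPS turned it to 0.78, and Cxcl11 was then no longer called, at -0.81. Cxcl9, a chemokine with the same receptor, had 52.6 and 52.1 FPKM in primed and 32.5 and 54.5 FPKM in unprimed libraries at 6 h, and 157 and 124 FPKM in primed and 3.8 and 2.18 FPKM in unprimed libraries at 2 h and a contrast of -4.86 ± 0.34 (limma, adjusted p = 3.35e-06).

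**Figure D3:**
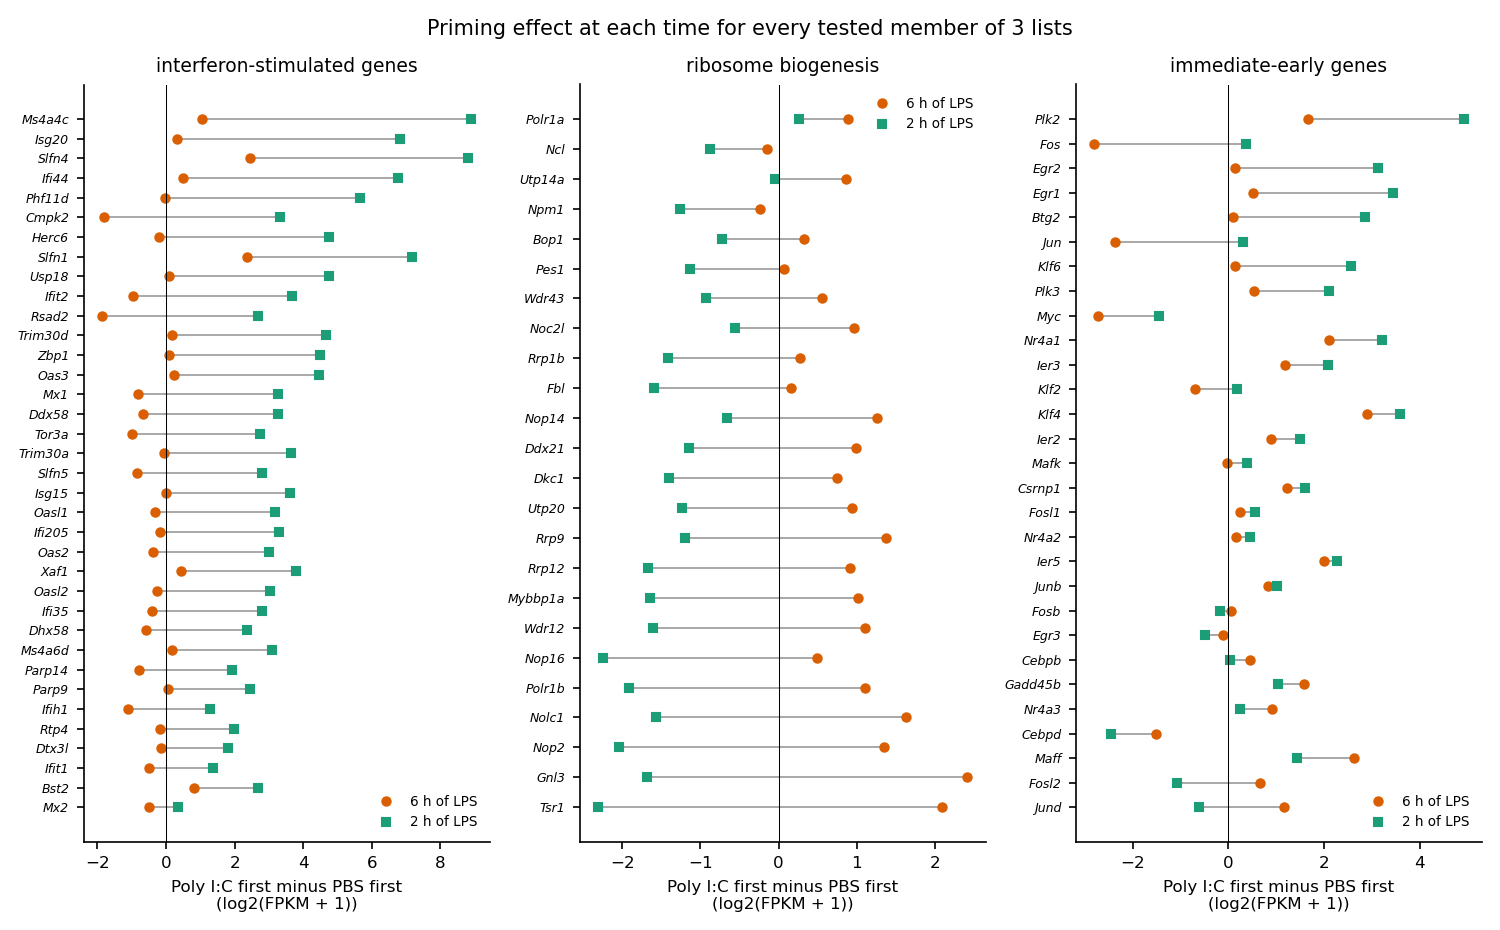
Priming effect (primed minus unprimed, log2(FPKM + 1), horizontal) at 6 h (circles) and 2 h (squares) for each tested member of 3 lists, ordered by the contrast. The interferon-stimulated genes with a call move left between 2 h and 6 h, all 24 ribosome biogenesis genes move right, and immediate-early genes go both ways.

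Fcgr1, the high-affinity IgG receptor and a macrophage marker that interferon induces, had 307 and 281 FPKM in primed and 801 and 932 FPKM in unprimed libraries at 6 h, and 578 and 548 FPKM in primed and 43.3 and 30.9 FPKM in unprimed libraries at 2 h. Unprimed libraries were the highest at 6 h and the lowest at 2 h, with a contrast of -5.46 ± 0.21 (limma, adjusted p = 1.44e-07). Inflammasome and effector genes were also mostly late in unprimed cells or moved in both arms. Of 15 tested inflammasome and lytic cell death genes 13 were lower in the contrast (86.7%, beside 25.3% of all genes), 8 of them with both arms called. Casp1, the protease that matures interleukin 1 beta, had 371 and 332 FPKM in primed and 484 and 578 FPKM in unprimed libraries at 6 h, and 512 and 497 FPKM in primed and 68.1 and 50.2 FPKM in unprimed libraries at 2 h, with a contrast of -3.68 ± 0.24 (limma, adjusted p = 2.24e-06). Of 29 tested effectors of inflammation and defence 19 were lower (65.5%) and 3 higher (10.3%), beside 25.3% and 19.1% of all genes. Of the lower ones 14 were late in unprimed cells. Nos2, the inducible nitric oxide synthase, had 299 and 234 FPKM in primed and 213 and 279 FPKM in unprimed libraries at 6 h, and 111 and 126 FPKM in primed and 11.1 and 4.76 FPKM in unprimed libraries at 2 h. Both arms rose, by 1.15 ± 0.29 in primed and 4.88 ± 0.29 in unprimed cells, so that the groups overlapped at 6 h. The contrast was -3.72 ± 0.42 (limma, adjusted p = 6.55e-05), and it was -1.01 and no longer called after the contrast without LPS was subtracted. Ass1, which recycles citrulline into arginine, had 55.3 and 59.4 FPKM in primed and 140.4 and 146 FPKM in unprimed libraries at 6 h, and 159.7 and 182 FPKM in primed and 18.4 and 12 FPKM in unprimed libraries at 2 h, and its contrast was -4.74 ± 0.26 (limma, adjusted p = 7.87e-07). Primed libraries were the lower ones at 6 h and the higher ones at 2 h.

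Marco, Maf and Arg1 rose late in unprimed cells and had no such level in primed cells at either time. Marco, a scavenger receptor for bacteria, had 1.69 and 1.55 FPKM in primed and 38.9 and 28 FPKM in unprimed libraries at 6 h, and 2.1 and 3.13 FPKM in primed and 6.54 and 2.87 FPKM in unprimed libraries at 2 h, and its contrast was -3.10 ± 0.41 (limma, adjusted p = 0.000192). Only the 6 h unprimed libraries were high. Maf, a transcription factor of resident macrophages, had 17.8 and 16.9 FPKM in primed and 135 and 135 FPKM in unprimed libraries at 6 h, and 15.8 and 12.9 FPKM in primed and 14.5 and 21.8 FPKM in unprimed libraries at 2 h, with a contrast of -2.59 ± 0.26 (limma, adjusted p = 3.24e-05). Arg1, the enzyme that diverts arginine from nitric oxide synthesis, was listed at 0 in all 4 primed libraries. In unprimed libraries it had 4.87 and 4.62 FPKM at 6 h, and 0 and 0.131 FPKM at 2 h. Il18, a cytokine processed by caspase 1, had 45.8 and 38.4 FPKM in primed and 165 and 210.4 FPKM in unprimed libraries at 6 h, and 58.2 and 53.2 FPKM in primed and 13.7 and 12 FPKM in unprimed libraries at 2 h. At both times its primed libraries lay between the unprimed libraries of 6 h and those of 2 h, and its contrast was -4.16 ± 0.21 (limma, adjusted p = 4.99e-07). Slco3a1, an organic anion transporter at chr7:74275419-74554780 (GRCm38), had 129 and 121 FPKM in primed and 104 and 126 FPKM in unprimed libraries at 6 h, and 109 and 104 FPKM in primed and 0.792 and 0.84 FPKM in unprimed libraries at 2 h. Only the 2 h unprimed libraries were low, under 1 FPKM, and the 6 h unprimed ones overlapped the primed range. The contrast was -5.76 ± 0.17 (limma, adjusted p = 6.06e-08).

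**Figure D4:**
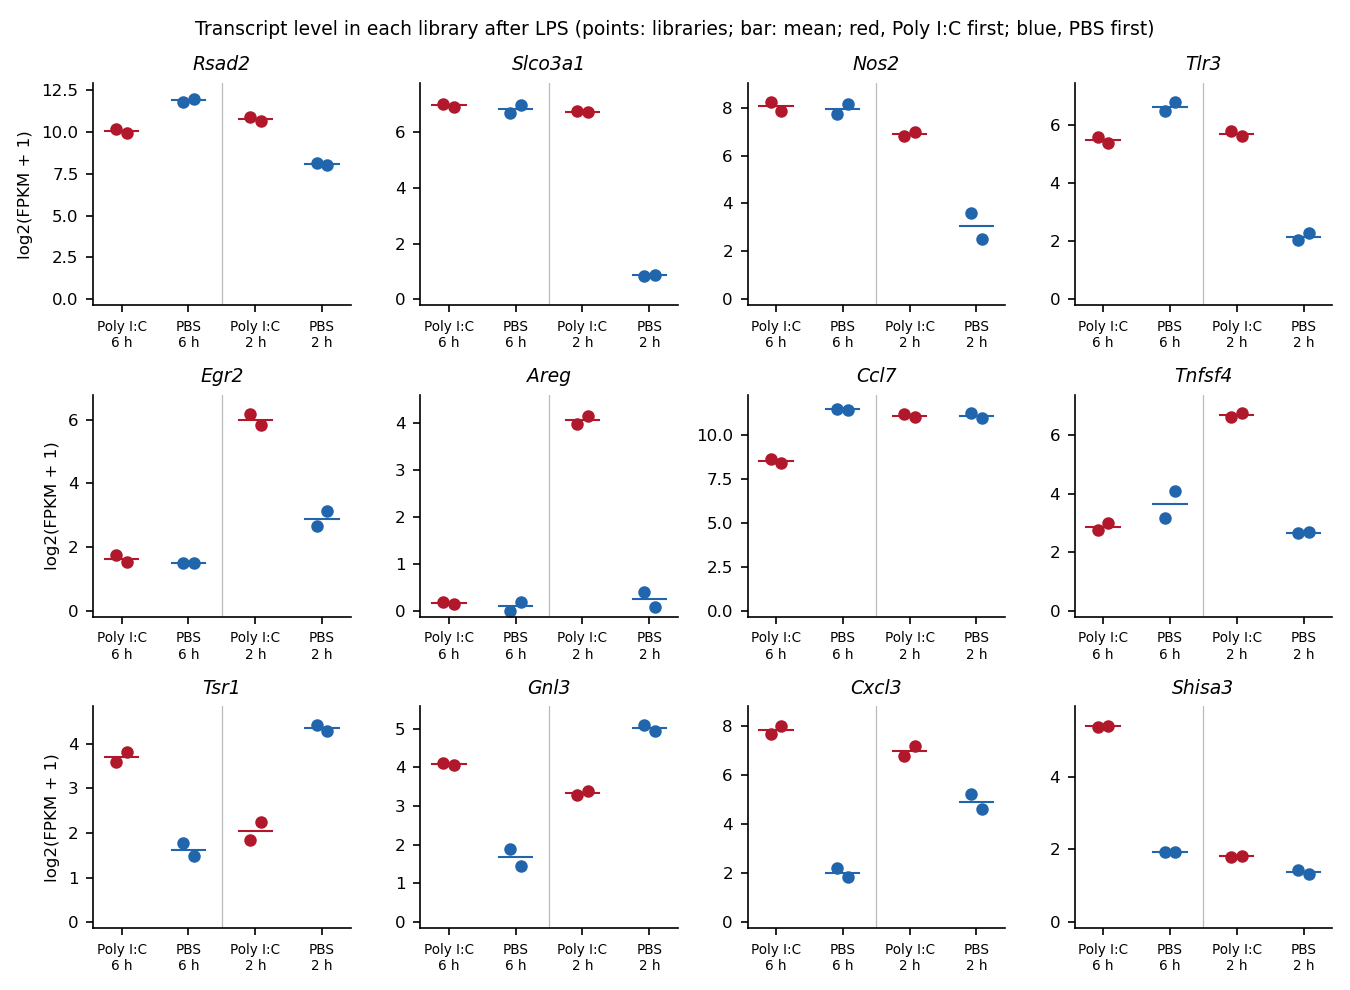
Level of 12 genes in each library as log2(FPKM + 1), with a point per library and a bar at the mean of the 2 libraries of a group. In the top row the 2 h unprimed libraries are the low ones, in Egr2, Areg and Tnfsf4 the 2 h primed libraries are the high ones, and in Tsr1 and Gnl3 primed cells are above unprimed cells at 6 h and below them at 2 h.

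Toll-like receptors and their signalling parts had a lower contrast in 13 of 24 tested members (54.2%) and a higher one in 5 (20.8%). Of all genes 25.3% were lower and 19.1% higher, so the higher share was near that of all genes. Tlr3, the receptor for double-stranded RNA, had 47.2 and 41.5 FPKM in primed and 88.7 and 111 FPKM in unprimed libraries at 6 h, and 54.7 and 48.8 FPKM in primed and 3.08 and 3.83 FPKM in unprimed libraries at 2 h. Primed libraries were below unprimed ones at 6 h and above them at 2 h, and the contrast was -4.71 ± 0.22 (limma, adjusted p = 2.76e-07). Tlr4, the LPS receptor, had 9.72 and 7.33 FPKM in primed and 26.1 and 20.1 FPKM in unprimed libraries at 6 h, and 12.2 and 8.4 FPKM in primed and 3.2 and 5.43 FPKM in unprimed libraries at 2 h, with a contrast of -2.44 ± 0.33 (limma, adjusted p = 0.000235) and the same change of order. It was no longer called after subtraction of the contrast without LPS, at -1.63. Tlr9, a receptor for unmethylated DNA, had 4.46 and 3.74 FPKM in primed and 10.1 and 11 FPKM in unprimed libraries at 6 h, and 26.5 and 21.4 FPKM in primed and 2.68 and 4.86 FPKM in unprimed libraries at 2 h. It rose in unprimed cells and fell in primed cells, and its contrast was -3.60 ± 0.29 (limma, adjusted p = 7.33e-06). Tlr13, a mouse receptor for bacterial ribosomal RNA, differed in its arms, with 19.3 and 19 FPKM in primed and 65.8 and 45.2 FPKM in unprimed libraries at 6 h, and 92.5 and 89.1 FPKM in primed and 28.8 and 48.3 FPKM in unprimed libraries at 2 h. Its primed cells fell by 2.19 on the log2 scale, the unprimed change of 0.54 ± 0.23 was not called, and the contrast was -2.72 ± 0.33 (limma, adjusted p = 0.000104).

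The 6 genes lost in primed cells that the rule on size named were Gm25534, Qpct, Areg, Znrf2, Pmaip1 and Egr2. Gm25534 had 16.9 and 16 FPKM in primed libraries at 2 h and was listed at 0 in the other 6 LPS libraries, with a contrast of -4.12 ± 0.88. Without LPS it had 5.62 and 0 FPKM at 6 h after Poly I:C and 4.48 FPKM in the 6 h PBS-then-PBS library, so its values also differed within a group. Qpct, glutaminyl cyclase, had 3.29 and 0.361 FPKM in primed and 2.4 and 2.01 FPKM in unprimed libraries at 6 h, and 31.4 and 11.5 FPKM in primed and 1.4 and 0 FPKM in unprimed libraries at 2 h, with a contrast of -4.10 ± 0.82 (limma, adjusted p = 0.00263). Its 2 h primed libraries were the highest. After subtraction of the contrast without LPS neither Gm25534 nor Qpct was called, with -2.61 for Qpct. Areg, the EGF receptor ligand amphiregulin whose promoter holds the CRE shown above, had 0.143 and 0.0997 FPKM in primed and 0 and 0.137 FPKM in unprimed libraries at 6 h, and 14.8 and 16.7 FPKM in primed and 0.325 and 0.0554 FPKM in unprimed libraries at 2 h. Only the 2 h primed libraries were above 1 FPKM, and the contrast was -3.75 ± 0.23 (limma, adjusted p = 1.36e-06). Areg passed the filter of 1 FPKM through those libraries alone, so its call is not independent support for a loss. Egr2, a zinc finger transcription factor of the immediate-early response, had 2.37 and 1.87 FPKM in primed and 1.84 and 1.8 FPKM in unprimed libraries at 6 h, and 71.4 and 56.3 FPKM in primed and 5.29 and 7.7 FPKM in unprimed libraries at 2 h. The 6 h groups lay close together and the 2 h primed libraries were high, and the contrast was -2.98 ± 0.35 (limma, adjusted p = 8.46e-05). Egr1, its relative, had 8 and 5.95 FPKM in primed and 4.53 and 4.56 FPKM in unprimed libraries at 6 h, and 143 and 137 FPKM in primed and 9.84 and 14.5 FPKM in unprimed libraries at 2 h, with a contrast of -2.93 ± 0.27 (limma, adjusted p = 1.69e-05). After subtraction of the contrast without LPS neither remained called, at -1.78 for Egr2 and -1.05 for Egr1. Of 29 immediate-early genes 11 were lower (37.9%) and 3 higher (10.3%), beside 25.3% and 19.1% of all genes. Of the lower ones 6 were lost in primed cells, 5 had both arms called and none was late in unprimed cells. The list fell in both arms, with 21 members called and a median of -1.20 in primed cells, and 16 and -0.92 in unprimed cells. Egr1 and Egr2 also fell in unprimed cells, with changes of -1.22 and -1.39. The list median was -0.43.

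Fos, a subunit of the AP-1 factor, had 8.23 and 6.12 FPKM in primed and 61.3 and 50.4 FPKM in unprimed libraries at 6 h, and 35.6 and 23.5 FPKM in primed and 17.4 and 28.2 FPKM in unprimed libraries at 2 h. It fell in primed cells and rose in unprimed cells, and the contrast was -3.17 ± 0.37 (limma, adjusted p = 8.11e-05). Without LPS the PBS-then-PBS library of each time had 50.4 FPKM at 6 h and 49 FPKM at 2 h. Unprimed cells given LPS were thus below that level at 2 h and near it at 6 h. Jun, its partner, had a contrast of -2.68 ± 0.22 (limma, adjusted p = 9.97e-06) with both arms called. Plk2, a polo-like kinase, had 95 and 78.4 FPKM in primed and 23.9 and 29.5 FPKM in unprimed libraries at 6 h, and 525 and 458 FPKM in primed and 13.5 and 17.2 FPKM in unprimed libraries at 2 h. The 2 h primed libraries were the highest and the primed libraries stayed above the unprimed ones at 6 h, with a contrast of -3.26 ± 0.31 (limma, adjusted p = 2.29e-05). The higher members were Jund, Fosl2 and Maff, with contrasts of 1.78 ± 0.31, 1.73 ± 0.28 and 1.19 ± 0.38, each through a fall in unprimed cells.

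Some cytokines and chemokines were also lost in primed cells. Ccl7, which attracts monocytes through CCR2, had 402 and 338 FPKM in primed and 2852 and 2840.4 FPKM in unprimed libraries at 6 h, and 2361 and 2083 FPKM in primed and 2441 and 1993 FPKM in unprimed libraries at 2 h. At 6 h the primed libraries stood apart below all others, and at 2 h the groups overlapped, with a contrast of -2.95 ± 0.26 (limma, adjusted p = 1.44e-05). Il10, the main anti-inflammatory cytokine of macrophages, had 76.5 and 62.1 FPKM in primed and 73.9 and 97 FPKM in unprimed libraries at 6 h, and 211 and 216 FPKM in primed and 50.8 and 45.5 FPKM in unprimed libraries at 2 h. Primed and unprimed libraries overlapped at 6 h while primed ones were the higher at 2 h, and the contrast was -2.42 ± 0.44 (limma, adjusted p = 0.00139). It was -1.001 and not called after subtraction of the contrast without LPS. Il23a, the p19 subunit of interleukin 23, had 14.3 and 11.9 FPKM in primed libraries at 6 h and was listed at 0 in both unprimed ones. At 2 h it had 65.7 and 86.5 FPKM in primed and 0.188 and 0.432 FPKM in unprimed libraries. Its contrast was called lower, but not with a pseudocount of 0.1, where it was -0.56 against -2.06. Tnfsf4, the costimulatory ligand OX40L, had 5.77 and 6.93 FPKM in primed and 8.12 and 16 FPKM in unprimed libraries at 6 h, and 97.6 and 108 FPKM in primed and 5.33 and 5.4 FPKM in unprimed libraries at 2 h, and its contrast was -4.79 ± 0.36 (limma, adjusted p = 4.78e-06). Only the 2 h primed libraries were high, although the rise in unprimed cells also passed the test.

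Lysosomal genes, which encode acid hydrolases and membrane proteins of the degradative compartment, were mainly lost in primed cells. Of 23 tested members of 26 listed, 16 were lower (69.6%) and 1 higher (4.3%) in the contrast, beside 25.3% and 19.1% of all genes. The median was -0.66, and 12 of the 16 were lost in primed cells by the test. By share of the contrast 9 were lost in primed cells and 7 were shared. The median change of the list was -0.66 in primed and 0.0040 in unprimed cells, and 21 members fell in primed cells. Lipa, the lysosomal acid lipase, had 54.4 and 51.5 FPKM in primed and 218 and 208 FPKM in unprimed libraries at 6 h, and 219.7 and 212 FPKM in primed and 223 and 339.6 FPKM in unprimed libraries at 2 h. The 6 h primed libraries stood apart below all others, and the contrast was -1.63 ± 0.23 (limma, adjusted p = 0.000318). Gla, alpha-galactosidase A, had 69 and 59.4 FPKM in primed and 66.3 and 68.8 FPKM in unprimed libraries at 6 h, and 205 and 190.3 FPKM in primed and 49.3 and 47.6 FPKM in unprimed libraries at 2 h, with a contrast of -2.08 ± 0.15 (limma, adjusted p = 3.56e-06). Its 2 h primed libraries stood apart above all others. Ctsb and Ctsl, cathepsin proteases, had smaller contrasts of -0.73 ± 0.20 and -0.66 ± 0.17. MHC class II and costimulation genes were lower in 10 of 14 (71.4%) and higher in 1 (7.1%), with 6 lost in primed cells. H2-DMa, which edits peptides on MHC class II, had 12.2 and 14.6 FPKM in primed and 12.5 and 10.9 FPKM in unprimed libraries at 6 h, and 32.3 and 32.6 FPKM in primed and 12.1 and 8.76 FPKM in unprimed libraries at 2 h, with a contrast of -1.39 ± 0.22 (limma, adjusted p = 0.000711). Ch25h, which makes 25-hydroxycholesterol, had 213 and 234 FPKM in primed and 113 and 189 FPKM in unprimed libraries at 6 h, and 1069 and 1182 FPKM in primed and 201 and 125 FPKM in unprimed libraries at 2 h. Its contrast was -2.21 ± 0.42 (limma, adjusted p = 0.00193), and it turned to 0.35 after subtraction of the contrast without LPS.

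Opposite movement of the arms was large for a cyclin and a decay factor. Ccnd1, cyclin D1, had 2.56 and 2.07 FPKM in primed and 127 and 171 FPKM in unprimed libraries at 6 h, and 27.1 and 19.4 FPKM in primed and 42.3 and 62.6 FPKM in unprimed libraries at 2 h. Unprimed libraries were above primed ones at both times, far more so at 6 h, with a contrast of -4.35 ± 0.34 (limma, adjusted p = 6.07e-06). Without LPS the PBS-then-PBS library of each time had 152 FPKM at 6 h and 133 FPKM at 2 h. Unprimed cells given LPS were thus below that level at 2 h and near it at 6 h. Zfp36, which encodes the mRNA decay factor tristetraprolin, had 269.9 and 200.3 FPKM in primed and 543 and 687 FPKM in unprimed libraries at 6 h, and 864 and 770.4 FPKM in primed and 159.9 and 149.8 FPKM in unprimed libraries at 2 h. Its order turned round between the times, and the contrast was -3.78 ± 0.39 (limma, adjusted p = 3.65e-05). Among 32 feedback inhibitors of TLR and NF-kB signalling 11 were lower (34.4%) and 5 higher (15.6%), beside 25.3% and 19.1% of all genes, with a list median of -0.044. Cish, a STAT5 feedback inhibitor, went the other way, with 5.38 and 5.79 FPKM in primed and 1.96 and 2.73 FPKM in unprimed libraries at 6 h, and 3.84 and 5.61 FPKM in primed and 34.4 and 33.1 FPKM in unprimed libraries at 2 h. Only the 2 h unprimed libraries were high, and the contrast was 3.60 ± 0.30 (limma, adjusted p = 1.05e-05). Socs1, the inhibitor of JAK kinases, had a contrast of 1.79 ± 0.58 (limma, adjusted p = 0.0292) through a rise in primed cells.

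Ribosome biogenesis genes had a higher priming effect at 6 h in every tested member. These genes encode factors that transcribe, cleave and assemble ribosomal RNA in the nucleolus. All 24 tested members of 26 listed were higher in the contrast, against 19.1% of all genes, with a median of 2.13. The median change was 0.77 in primed and -1.31 in unprimed cells. In primed cells 19 rose, and in unprimed cells 21 fell. At 6 h 17 were higher in primed cells and none was lower, and at 2 h 22 were lower and none was higher. Without LPS the same list had a median change of 0.78 between 2 h and 6 h after Poly I:C, with 19 members called higher against 12.3% of all genes.

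Tsr1, a maturation factor of the small subunit whose table entry gives the wider locus chr11:74898071-75164448 (GRCm38), had 11.1 and 13.1 FPKM in primed and 2.4 and 1.78 FPKM in unprimed libraries at 6 h, and 2.58 and 3.76 FPKM in primed and 20.5 and 18.4 FPKM in unprimed libraries at 2 h. The order of primed and unprimed cells turned round with no overlap at either time, and the contrast was 4.39 ± 0.27 (limma, adjusted p = 1.37e-06). Gnl3, the nucleolar GTPase nucleostemin, had 16.4 and 15.6 FPKM in primed and 2.72 and 1.73 FPKM in unprimed libraries at 6 h, and 8.73 and 9.42 FPKM in primed and 33 and 29.6 FPKM in unprimed libraries at 2 h, with a contrast of 4.09 ± 0.22 (limma, adjusted p = 6.43e-07). Its 6 h unprimed libraries were far below all others. Nop2, an RNA methyltransferase of the large subunit, had 12.6 and 13.4 FPKM in primed and 5.35 and 3.75 FPKM in unprimed libraries at 6 h, and 3.68 and 4.26 FPKM in primed and 22.3 and 17 FPKM in unprimed libraries at 2 h, with a contrast of 3.39 ± 0.25 (limma, adjusted p = 3.99e-06). Polr1b, a subunit of RNA polymerase I, had a contrast of 3.02 ± 0.29 (limma, adjusted p = 2.5e-05). Myc, a transcription factor known to drive this programme, was lower in primed cells at both times, with priming effects of -2.74 ± 0.18 at 6 h and -1.44 ± 0.18 at 2 h, with a contrast of -1.29 ± 0.25 (limma, adjusted p = 0.00221). Ribosomal protein genes moved less, with 3 of 16 higher (18.8%, beside 19.1% of all genes), none lower and a median of 0.59. That median was 0.28 without the first and 0.87 without the second unprimed 2 h library. The number and direction of the calls varied over the other settings.

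Most called cell cycle and cholesterol genes were lost in unprimed cells. Of 32 tested cell cycle genes 21 were higher (65.6%) and 3 lower (9.4%), beside 19.1% and 25.3% of all genes. Of the 21, 19 were lost in unprimed cells. The lower ones were Ccnd1, Ccnd2 and Pcna. The list's median change was -0.11 in primed and -1.34 in unprimed cells. Rrm2, the small subunit of ribonucleotide reductase, had 0.846 and 0.971 FPKM in primed and 1.67 and 1.58 FPKM in unprimed libraries at 6 h, and 1.16 and 0.489 FPKM in primed and 18.8 and 25.4 FPKM in unprimed libraries at 2 h. Only the 2 h unprimed libraries were high, and the contrast was 3.21 ± 0.29 (limma, adjusted p = 1.48e-05). Tk1, thymidine kinase, had 2.26 and 1.05 FPKM in primed and 5.85 and 7.78 FPKM in unprimed libraries at 6 h, and 3.84 and 1.62 FPKM in primed and 65.7 and 47.8 FPKM in unprimed libraries at 2 h, with a contrast of 2.42 ± 0.45 (limma, adjusted p = 0.00171). Of 22 tested cholesterol biosynthesis and uptake genes 14 were higher (63.6%) and 1 was lower (4.5%), and all 14 were lost in unprimed cells. Hmgcs1, which makes the precursor of mevalonate, had 9.89 and 8.8 FPKM in primed and 9.48 and 8.52 FPKM in unprimed libraries at 6 h, and 11.5 and 11.6 FPKM in primed and 37.2 and 44.7 FPKM in unprimed libraries at 2 h. Unprimed libraries overlapped the primed ones at 6 h and were high at 2 h, and the contrast was 1.79 ± 0.18 (limma, adjusted p = 3.63e-05). Insig1, which holds the SREBP activator in the endoplasmic reticulum, had 10.5 and 9.04 FPKM in primed and 12.3 and 12 FPKM in unprimed libraries at 6 h, and 21.1 and 18.1 FPKM in primed and 82.1 and 95 FPKM in unprimed libraries at 2 h, with a contrast of 1.83 ± 0.18 (limma, adjusted p = 2.38e-05). In cells without LPS the PBS-then-PBS libraries had 78.7 FPKM at 6 h and 86.4 FPKM at 2 h.

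Of 4 tested neutrophil chemokines of 6 listed, 2 were higher in the contrast and none lower, beside 19.1% and 25.3% of all genes. In primed cells 2 fell, and in unprimed cells 3 fell. Cxcl3, a ligand of CXCR2, had 203 and 255 FPKM in primed and 3.6 and 2.58 FPKM in unprimed libraries at 6 h, and 109 and 142 FPKM in primed and 36 and 23.5 FPKM in unprimed libraries at 2 h. Primed libraries were above unprimed ones at both times with no overlap, and the contrast was 3.75 ± 0.51 (limma, adjusted p = 0.000232). Cxcl1, which binds the same receptor, had 149 and 136 FPKM in primed and 1.12 and 0.712 FPKM in unprimed libraries at 6 h, and 405 and 478 FPKM in primed and 33.8 and 35.7 FPKM in unprimed libraries at 2 h. It fell in both arms, by 1.62 in primed and by 4.23 in unprimed cells on the log2 scale, and the contrast was 2.61 ± 0.47 (limma, adjusted p = 0.00138).

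Genes that arrived late in primed cells were fewer and included small secreted and membrane proteins. Shisa3, a membrane protein that restrains Wnt and FGF receptors, had 39.9 and 41.1 FPKM in primed and 2.79 and 2.77 FPKM in unprimed libraries at 6 h, and 2.49 and 2.53 FPKM in primed and 1.69 and 1.48 FPKM in unprimed libraries at 2 h. Only the 6 h primed libraries were high, and the contrast was 3.02 ± 0.19 (limma, adjusted p = 1.58e-06). Vnn3, a vanin-family pantetheinase gene, had 25.6 and 24.2 FPKM in primed and 0.538 and 0.778 FPKM in unprimed libraries at 6 h, and 0.854 and 1.27 FPKM in primed and 0.205 and 0.104 FPKM in unprimed libraries at 2 h, with a contrast of 3.14 ± 0.27 (limma, adjusted p = 1.19e-05). Hamp, the iron hormone hepcidin, had 12.8 and 10.1 FPKM in primed and 0.34 and 1.16 FPKM in unprimed libraries at 6 h, and 0.495 and 0 FPKM in primed and 3.59 and 0.747 FPKM in unprimed libraries at 2 h, and its contrast was 4.07 ± 0.58 (limma, adjusted p = 0.000323). S100a8, a calcium-binding alarmin that also marks neutrophils, had 7.01 and 5.81 FPKM in primed and 1.7 and 1.16 FPKM in unprimed libraries at 6 h, and 0 and 0.478 FPKM in primed and 2.15 and 1.99 FPKM in unprimed libraries at 2 h, with a contrast of 2.95 ± 0.35 (limma, adjusted p = 8.87e-05). Its partner S100a9 and the neutrophil markers Elane, Ngp and Retnlg were listed at 0 in all 8 LPS libraries, and the 9 neutrophil markers summed to 7.25 to 8.36 FPKM in primed and 1.73 to 2.12 FPKM in unprimed libraries at 6 h, and to 0.558 to 0.98 FPKM in primed and 2.13 to 2.21 FPKM in unprimed libraries at 2 h. Il12b, the p40 subunit shared by interleukins 12 and 23, had 57.6 and 60.7 FPKM in primed and 39.8 and 21.9 FPKM in unprimed libraries at 6 h, and 26.6 and 31 FPKM in primed and 45.6 and 41.9 FPKM in unprimed libraries at 2 h. It rose in primed cells, and its contrast of 1.57 ± 0.36 (limma, adjusted p = 0.00542) was not called with a pseudocount of 0.1 or after subtraction of the contrast without LPS, at 1.60 and 1.67. Plat, tissue plasminogen activator, moved in both arms with 24.6 and 25.6 FPKM in primed and 1.26 and 0.664 FPKM in unprimed libraries at 6 h, and 5.38 and 6.52 FPKM in primed and 7.82 and 9.4 FPKM in unprimed libraries at 2 h, and its contrast was 4.22 ± 0.27 (limma, adjusted p = 1.69e-06).

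Of 26 tested inflammatory cytokines 11 were lower in the contrast and 1 was higher, against 25.3% and 19.1% of all genes, and the contrasts of Tnf, Il6 and Il1b did not pass the test. Tnf had 986 and 916 FPKM in primed and 227 and 227 FPKM in unprimed libraries at 6 h, and 5647 and 6065 FPKM in primed and 694 and 624 FPKM in unprimed libraries at 2 h. It was higher in primed cells at both times, both arms fell, and the contrast was -1.09 ± 0.67 (limma, adjusted p = 0.213). It was called when the 8 LPS libraries were fitted alone. Il6 had 389.9 and 378 FPKM in primed and 28.1 and 35.4 FPKM in unprimed libraries at 6 h, and 322 and 395 FPKM in primed and 33.6 and 19.8 FPKM in unprimed libraries at 2 h, with a contrast of -0.17 ± 0.65 (limma, adjusted p = 0.849). Il1b had 2824 and 2533 FPKM in primed and 656 and 584 FPKM in unprimed libraries at 6 h, and 2197 and 2506 FPKM in primed and 679 and 489.6 FPKM in unprimed libraries at 2 h, with a contrast of 0.086 ± 0.50 (limma, adjusted p = 0.901). In both genes primed libraries were above unprimed ones at each time and neither arm's change was called. A contrast that misses the threshold does not show that the priming effect was equal at both times. Ptgs2, the cyclooxygenase of prostaglandin synthesis, had 876 and 728 FPKM in primed and 24.3 and 27.3 FPKM in unprimed libraries at 6 h, and 1068 and 1012 FPKM in primed and 6.8 and 9.36 FPKM in unprimed libraries at 2 h. Primed libraries were far above unprimed ones at both times, and the contrast of -1.95 ± 0.50 (limma, adjusted p = 0.00984) was -0.14 and not called after the contrast without LPS was subtracted. The feedback genes Nfkbia and Socs3 had contrasts of 0.24 ± 0.60 (limma, adjusted p = 0.771) and 0.086 ± 0.74 (limma, adjusted p = 0.936).

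**Figure D5:**
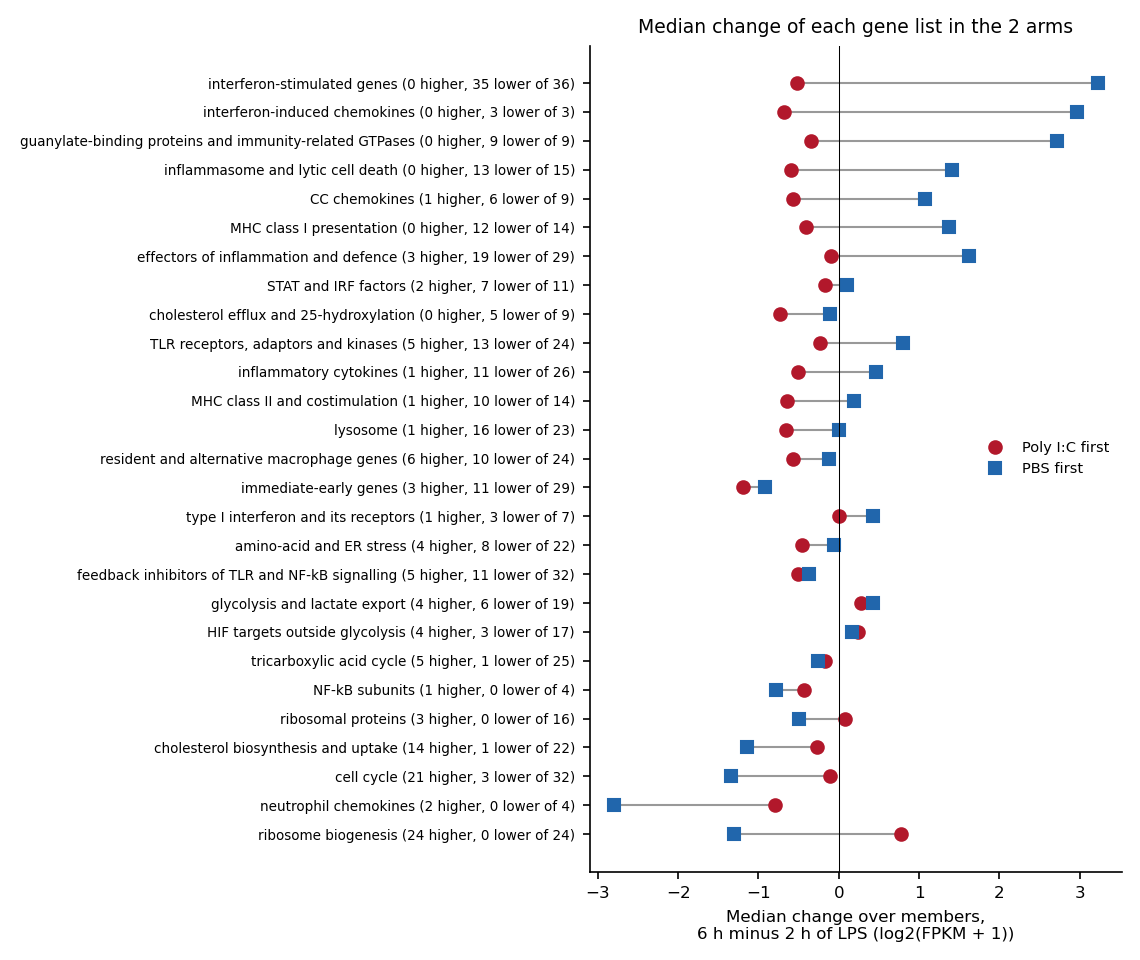
Median change over the tested members of each list between 2 h and 6 h of LPS (6 h minus 2 h, log2(FPKM + 1)) in primed cells (circles) and unprimed cells (squares), with lists ordered by their median contrast and the number of members called in brackets. Interferon-stimulated genes have medians of -0.53 in primed and 3.23 in unprimed cells, and ribosome biogenesis genes have 0.77 in primed and -1.31 in unprimed cells.

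Metabolic lists had members called in both directions, and all shares are to be read against the 19.1% of all genes that were higher and the 25.3% that were lower. Of 19 glycolysis genes 4 were higher and 6 lower, and Hk3, a hexokinase of myeloid cells, had 189.6 and 145 FPKM in primed and 337 and 454 FPKM in unprimed libraries at 6 h, and 432 and 445 FPKM in primed and 129 and 109.8 FPKM in unprimed libraries at 2 h with a contrast of -3.11 ± 0.23 (limma, adjusted p = 5.04e-06). Of 25 tricarboxylic acid cycle genes 5 were higher and 1 lower, with a median of 0.13. Idh2, mitochondrial isocitrate dehydrogenase, had 2.52 and 3.47 FPKM in primed and 26 and 19.9 FPKM in unprimed libraries at 6 h, and 3.26 and 3.69 FPKM in primed and 55.2 and 45.6 FPKM in unprimed libraries at 2 h. Its contrast of 0.93 ± 0.24 (limma, adjusted p = 0.0107) turned to -0.51 after subtraction of the contrast without LPS. Of 17 HIF targets outside glycolysis 4 were higher and 3 lower, of 22 amino-acid and ER stress genes 4 and 8, and of 24 resident and alternative macrophage genes 6 and 10. Of 4 NF-kB subunits 1 was higher, of 7 type I interferon and receptor genes 1 was higher and 3 lower, of 9 CC chemokines 1 and 6, and of 9 cholesterol efflux genes 5 were lower.

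The same interval without LPS gives the course of Poly I:C alone. Between 2 h and 6 h of the second PBS treatment, 12.3% of all genes rose and 18% fell after Poly I:C. Of the genes lower in the contrast 1360 of 3030 fell over this interval without LPS, including 40.7% of those late in unprimed cells, 35.8% of those lost in primed cells and 64.2% of those with both arms called. Of the genes higher in the contrast, 57.3% of those with both arms called rose without LPS. The shares were 32.0% of those late in primed cells and 22.3% of those lost in unprimed cells. At 2 h, Poly I:C without LPS was called higher than PBS alone for 24.9% of all genes. The share was 59.6% of the genes late in unprimed cells and 50% of the genes lost in primed cells. It was 76.4% of the genes with a lower contrast and both arms called. The contrast itself was called without LPS in 194 genes higher (1.62%) and 442 lower (3.69%), with 1 library per time for PBS alone. These comparisons share libraries within the Poly I:C arm and are given side by side only.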

How the data were processed

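Polyadenylated RNA was sequenced with a stranded kit in paired reads, per the labels' protocols. The submitters' processing notes name TopHat2, Cufflinks, Cuffnorm and mm9, with no versions. The authors deposited 1 table of FPKM values with 39721 entries, of which 1066 name several genes and 1859 none. Entries matched GENCODE M21 genes on GRCm38, with 33796 of 33853 single-name entries overlapping the gene of that name, so coordinates are given as GRCm38 and not as mm9.

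The table holds no counts, so sequencing depth is unknown and intervals for counting error cannot be given. From the steps between low values, the value of 1 fragment spanned a 3.08-fold range across libraries, and for 66 of 91 library pairs the steps were within 0.1 log2 of that estimate. Total FPKM was 589055 to 964258 in the 8 LPS libraries, and entries without a name held 6.33% to 17.7% of it over all libraries.

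Named entries at 1 FPKM or more in at least 2 of 14 libraries were kept (11977, with 832 that name several genes and 9586 that hold a single protein-coding gene). Of these entries 3744 shared a locus with another kept entry. A model with 1 mean for each of 8 groups was fitted to log2(FPKM + 1) with limma 3.58.1 in R 4.3.3, with an intensity trend in the variance prior (median 3.99 degrees of freedom, beside 6 residual ones), in 2-sided tests adjusted over all entries. Lone PBS-then-PBS libraries were assumed to vary like the other groups. Genes were named as the 6 largest contrasts of each class with a group mean of 5 FPKM or more and 1 sign over the 16 choices of 1 library per LPS group, at most 4 members per list that passed the test, and some genes fixed by name. Other list members given in the text were chosen after their values were seen. Single values of some listed genes are not reported here. The members and lists were chosen with earlier results of these data known. Of 662 listed names, entries of their own were used, and merged entries were left out. The other settings tried were median-of-ratios scaling, a pseudocount of 0.1, all named entries without the filter, no trend, the 8 LPS libraries alone, a replicate term, leaving out each replicate, classes by share, and subtraction of the contrast without LPS, and, added after seeing the data, entries naming 1 protein-coding gene. Python 3.11.15, numpy 2.4.6, pandas 2.3.3 and matplotlib 3.10.9 were used.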

Additional observations from a re-analysis of the deposited data

Results flagged for a closer look

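The test of the difference between the times called 2282 genes higher and 3030 lower at 6 h than at 2 h. Of the genes named by rule, 51 had priming effects called in opposite directions at the times, and the 28 in which both effects were at least 2-fold are listed here. None of these differences was weighed further.

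In 15 of them primed cells were lower than unprimed cells at 6 h and higher at 2 h. Their contrasts were -5.98 for Tnfsf10, -5.72 for Lipg, -5.46 for Fcgr1, -4.74 for Ass1, -4.71 for Tlr3, -4.55 for Rsad2, -4.16 for Il18, -3.86 for Ccl12, -3.78 for Zfp36, -3.60 for Tlr9, -3.58 for Tlr8, -3.11 for Hk3, -2.88 for P4ha1, -2.72 for Tlr13 and -2.44 for Tlr4.

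In the other 13 primed cells were higher than unprimed cells at 6 h and lower at 2 h. The contrasts were 2.95 for S100a8, 3.14 for Rin3, 3.21 for Nolc1, 3.39 for Nop2, 3.68 for Gm17041, 4.07 for Hamp, 4.09 for Gnl3, 4.22 for Rrs1, 4.38 for Grwd1, 4.39 for Tsr1, 4.87 for Rnd1, 5.87 for adapt33_3 and 6.00 for mmu-mir-1957b. The last 2 are each listed at 0 in libraries of 2 of the 4 LPS groups. Gm17041 is listed at the same locus as Cish, chr9:107292435-107302784 (GRCm38), so its values may not be independent of those of Cish.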

How the results depend on the processing

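Of the calls of the contrast, 86.4% to 98.2% were called in the same direction with median-of-ratios scaling, a pseudocount of 0.1, all named entries, no trend, the 8 LPS libraries alone or a replicate block, and 78.4% to 92.6% when 1 LPS library was left out. Like-numbered replicates had deviations that correlated at -0.19 to 0.078 over 15 pairs of groups, so the numbers do not pair the samples. The replicate block changed the counts of the contrast without LPS to 120 higher and 292 lower, and no other count by more than 1.5 times.

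Leaving out 1 library gave 105 to 425 higher and 280 to 803 lower genes for the contrast without LPS, with the low counts when a primed LPS library and the high ones when a 2 h unprimed LPS library was left out. The genes that rose in primed cells numbered 1106 to 2116, with 1132, 1171 and 1106 without the first and second primed 6 h and the first primed 2 h library. The genes with both arms called ranged over 483 to 993 (lower) and 296 to 608 (higher), and those late in primed cells over 313 to 610, with the lowest values without the second primed 6 h library (483) and the first primed 2 h library (296 and 313). By share of the arms 1010 genes had both arms higher, and with protein-coding entries alone 67 lower genes had neither arm called, a smaller set of entries. With the contrast without LPS subtracted, 758 of all genes were called higher and 1199 lower. The cause of these shifts was not tested.

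Of the named genes, sign changes were few. Ifnb1 had 0.047 with a pseudocount of 0.1, -0.46 to 0.28 with 1 library left out, and 1.86 after subtraction of the contrast without LPS. It was above 0 without the second unprimed library of either time. With 1 library left out, Socs3 ranged over -0.071 to 0.24, Il1b over -0.15 to 0.32 and Il6 over -0.54 to 0.20. Socs3 was below 0 without the first library of any LPS group but the primed one at 2 h, Il1b was below 0 without the first library of either 2 h group, and Il6 was above 0 without the second unprimed 2 h library. Subtraction gave 1.46 for Il6, and it gave 0.78 for Cxcl10, -0.51 for Idh2 and 0.35 for Ch25h. Subtraction also ended the call of 36 named genes. Depth is unknown, so no limit of detection can be given.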
